A study of Mus musculus with 16 samples.

Results

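Cytosolic ribosomal protein genes encode the proteins that, with ribosomal RNA, build the large and the small subunit of the ribosome outside mitochondria. They were taken here as the protein-coding genes whose symbols follow the Rpl and Rps pattern, with Rplp0, Rplp1, Rplp2, Rpsa and Fau added. The rule found 86 genes among the 46320 in the table, 53 of the large subunit and 33 of the small subunit. Of these, 84 passed the filter on low counts. The other two were Rpl10l, which had no counts in any library, and Rpl3l, which stayed between 0.044 and 0.247 CPM in every library (CPM, counts scaled by TMM to one common library total).

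RNA was sequenced in bulk from macrophages grown from the bone marrow of C57BL6/J mice in medium containing M-CSF, the macrophage growth factor. After a period in low serum, the macrophages received for 4 hours PBS as the vehicle, or thrombin, or platelets at rest, or platelets activated with thrombin, and each group had 4 libraries. Thrombin is the clotting protease that also activates platelets, and the platelets came from blood of C57BL6/J mice. The dose of thrombin is given as 0.01 U/mL in the protocol and as 0.1 U/mL in the labels of the thrombin group, and the labels of the activated platelet group give none, so each comparison of those groups assumes one dose. Platelets were added to the wells and nothing in the labels says that they were removed before RNA extraction. The labels do not say whether replicates were separate mice or cultures, so p-values measure the spread between these libraries. Libraries numbered 1 carried male transcripts (Ddx3y 85.1 to 93.2 CPM) and those numbered 2 to 4 female ones (Xist 1060 to 1290 CPM).

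Ribosomal proteins are made in nearly equal amounts, because each mature ribosome holds most of them once. Their mRNAs are short and abundant, and many begin with a C followed by a run of pyrimidines, the terminal oligopyrimidine (TOP) tract. The kinase complex mTORC1, acting partly through the RNA-binding protein LARP1, controls how well such mRNAs are translated and how stable they are. In macrophages, growth factors and activating signals act on mTORC1. Amounts of mRNA, measured here, do not show how much was translated.

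Start sites of 12 of the named members are shown, with long and short runs of pyrimidines among them, because the tract is what these mRNAs are known for. RefSeq promoter windows (GRCm38.p6) were matched by gene ID for 65 of the 86 genes, with 77 start sites. In each 30-base stretch, read on the gene's strand, capitals mark the longest, or in a tie one of the longest, unbroken run of C and T that begins with C within 50 bases on either side of the annotated start:
Fau, chr19:6057937-6057966, plus strand: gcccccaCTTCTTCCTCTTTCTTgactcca
Rps15, chr10:80292446-80292475, plus strand: gcagcccgtaCTTCCTTTTCCgagtaaccg
Rps19, chr7:24884623-24884652, plus strand: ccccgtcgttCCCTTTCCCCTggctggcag
Rpl41, chr10:128549119-128549148, minus strand: cgccattaaatagcagtaggCCTCCCTCTC
Rpl39, chrX:37085173-37085202, minus strand: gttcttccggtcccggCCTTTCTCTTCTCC
Rpl38, chr11:114668569-114668598, plus strand: gaagcctcgttCTTTCCCCgttctcttcgg
Rpl11, chr4:136053357-136053386, minus strand: cggaagtCTCCCTCTCTCTTCCTgttctcc
Rpl32l, chr10:20208429-20208458, plus strand: aaatgaccagCTTCTTCCTTggtgctgcct
Rpl7l1, chr17:46782671-46782700, minus strand: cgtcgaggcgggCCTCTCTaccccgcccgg
Rps27l, chr9:66946063-66946092, plus strand: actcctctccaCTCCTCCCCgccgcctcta
Rplp0, chr5:115559467-115559496, plus strand: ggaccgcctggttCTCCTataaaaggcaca
Rps4x, chrX:102189348-102189377, minus strand: agcgcgcgcgcagCCTCCgaccctaatttc

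Among these stretches, the run was 16 letters long in Fau and in Rpl11, 7 letters long in Rpl7l1 and 5 in Rplp0 and Rps4x, and the stretch of Rps27l holds a second run as long as the marked one. Not all runs lie at the annotated start. Counted from the start, the marked run begins at position −3 in Fau and 1 in Rpl38 and Rpl32l, but at −43 in Rps19, −32 in Rpl7l1, 37 in Rpl39 and 41 in Rpl41. The runs of Rpl39 and Rpl41 reach the end of the window searched. A run of at least 8 letters was present at 77.9% of the members' 77 start sites and at 28.8% of all 32851 start sites in the table. The median longest run was 10 letters for members and 6 for all start sites. The motif CTTTC, read on the gene's strand, occurred at 48.1% of members' start sites and 12.8% of all, and CTTCC, which can overlap it, at 45.5% and 19.5%. CCGGAAG on either strand occurred at 18.2% and 5.21%, and TATAAA on the gene's strand at 6.49% and 3.4%. These are matches of letters, and the windows follow annotated starts, not starts measured in these cells.

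Per unit of length, ribosomal protein mRNAs were among the abundant transcripts of these macrophages. On the TPM scale (counts divided by exon length and brought to one total per library), the 84 genes had a median of 969 over the 16 libraries, against 14.8 for all 15610 tested genes. The highest levels were those of Rplp1 (3410 TPM), a protein of the stalk that recruits translation GTPases, and Rps29 (2480 TPM), a small subunit protein. Rpl32, Rpl12 and Rpl41, all of the large subunit, followed at 2200, 2150 and 2140 TPM. In the vehicle group the SD of Rpl41 (2250 ± 163 TPM, n = 4), Rpl12 (2190 ± 151) and Rpl32 (2180 ± 127) exceeded the distance between their means, so their order did not differ beyond the spread.

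The lowest levels belonged to paralogs, related copies of a standard ribosomal protein gene, whose likeness in sequence was not measured here. Rpl32l had 6.8 TPM, Rpl39l 16.6, Rps27l 66.7, Rpl7l1 92.6 and Rpl6l 146. The models of Rpl32l, Rpl6l and Rpl10l have no intron: their exon length equals the length of the gene (592, 945 and 1023 bases). Reads of such copies can be shared with the parent gene, and the setting for such reads is not given in the sources used here. Of the counts over the libraries, 93.8% for Rpl32l and 100% for Rpl6l were not whole numbers. The values of Rpl32l and Rpl6l are therefore uncertain as those of single genes.

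Together the 86 genes took about 3% of all counts, with small differences between the groups. The share was 2.95%, 2.76%, 2.85% and 3.05% in vehicle libraries 1 to 4, with a mean of 2.9% ± 0.124 (SD, n = 4). With thrombin it was 2.72%, 2.74%, 2.85% and 3.07%, with a mean of 2.85% ± 0.16. Thrombin and vehicle libraries overlapped.

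With resting platelets the share was 2.78%, 2.63%, 2.81% and 2.89%, with a mean of 2.78% ± 0.106. Each library was below the vehicle library of its own number, although the groups overlapped. With activated platelets it was 3.13%, 2.93%, 2.95% and 3.05%, with a mean of 3.01% ± 0.0937. Activated and resting libraries did not overlap, and the ratio of their means was 1.09. Activated libraries exceeded vehicle in 4 of 4 same-numbered pairs (ratio 1.04) and thrombin in 3 of 4. These sums are descriptions and carry no test.

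**Figure D1:**
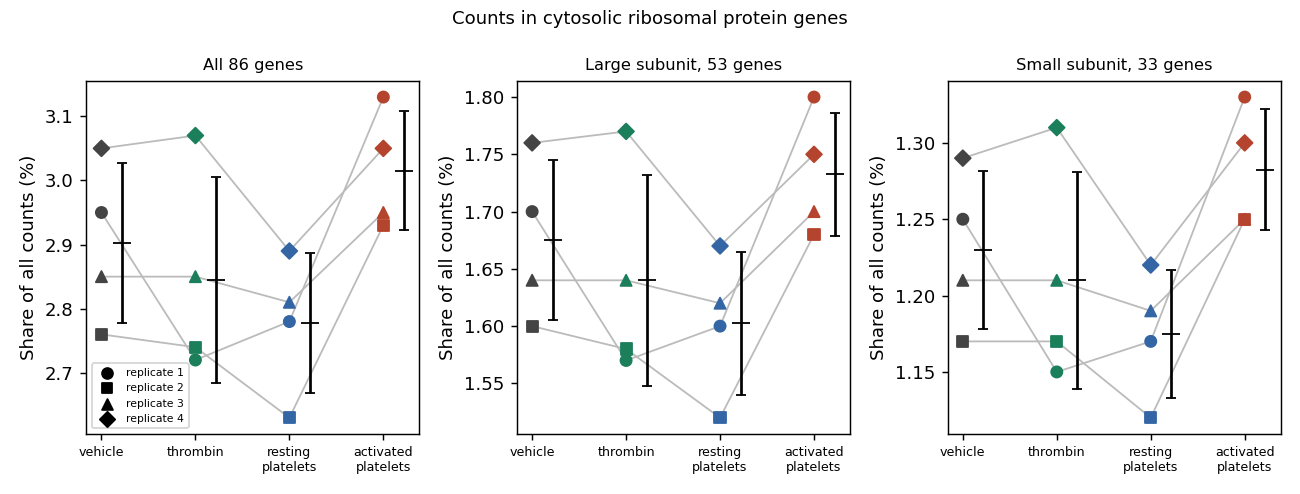
Share of all counts (percent, axis not starting at 0) in all 86 genes, in the 53 of the large subunit and in the 33 of the small subunit, for each library; grey lines join libraries of one number and bars are mean ± SD of 4. Activated platelet libraries (2.93% to 3.13% for all genes) lie above resting ones (2.63% to 2.89%).

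Both subunits moved alike. The large subunit took 1.6% ± 0.0616 of counts with resting and 1.73% ± 0.0539 with activated platelets, and the small subunit 1.17% ± 0.0442 and 1.28% ± 0.0399. The 225 ribosomal protein pseudogenes named in the table, mostly processed copies of the same mRNAs, took 0.217% ± 0.00689 and 0.233% ± 0.007, a ratio of 1.08. Mitochondrial ribosomal proteins, which serve the separate ribosome of mitochondria, took 0.18% ± 0.0021 and 0.192% ± 0.00348, a ratio of 1.07.

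Several measures moved with the groups, and their part in the results that follow was not tested. Total counts were 22.6 M to 27.7 M per library (M, mega) in the vehicle group, 23.1 M to 26.7 M with thrombin, 24.9 M to 26.4 M with resting and 28 M to 30.6 M with activated platelets. All 10 macrophage markers were present (141 to 12700 CPM), and their sum was between 1.76% and 2.2% of counts in every library. Of 20 platelet markers 19 were in the table, all with counts. Their sum was 0.0238% to 0.0302% with vehicle, 0.0248% to 0.0287% with thrombin, 0.0265% to 0.0325% with resting and 0.0466% to 0.0512% with activated platelets. Without Pf4, which macrophage libraries without platelets also held, it was 0.0062% to 0.00803%, 0.00632% to 0.00821%, 0.00714% to 0.0118% and 0.0214% to 0.0274%, a ratio of means of 3.22 for activated platelets to vehicle.

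Other cell types' markers moved with the same contrast. The sum of 8 erythroid markers, 6 of them with counts (Slc4a1 and Ahsp had 0), was 0% to 7.33e-06% with vehicle, 0% to 4.07e-06% with thrombin, 8.05e-05% to 0.000296% with resting and 0.000778% to 0.00141% with activated platelets, 5.07 times the mean with resting. The sum of 8 lymphocyte markers, 7 with counts (Cd3g had 0), was lower with activated than with resting platelets in 4 of 4 pairs (0.000676% to 0.00127% against 0.00117% to 0.00281%). It was 0.00181% to 0.00327% with vehicle and 0.00155% to 0.0028% with thrombin. The 8 neutrophil markers, all with counts, summed to 0.00194% to 0.00655% with vehicle, 0.00121% to 0.00761% with thrombin, 0.00182% to 0.00928% with resting and 0.00495% to 0.0122% with activated platelets, which were above resting in 4 of 4 pairs. The 6 stromal markers, all with counts, summed to 0.246% to 0.508%, 0.23% to 0.468%, 0.238% to 0.492% and 0.198% to 0.435% in the same order, below resting in 4 of 4 pairs with activated platelets. In this bulk RNA, a different number of cells of a type and a different amount of RNA per cell cannot be told apart.

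Thrombin alone left the ribosomal protein genes without a called member. The edgeR quasi-likelihood test called 0 of 84 higher and 0 lower (all tested genes 0.0897% higher and 0.199% lower), and before adjustment 4 had a higher and 8 a lower level at p under 0.05. DESeq2 called 1 lower and limma-voom 0. Shares of all genes are given here for neither these nor the unadjusted counts. The median log2 fold change was −0.01, against 0.01 for all genes. With the replicate number as a block, 1 was called higher (background 3.91%) and 4 lower (4.32%), among them Fau (−0.17, adjusted p = 0.0495) and Rps15 (−0.16, adjusted p = 0.0311). With a correction for GC content added to the block, 1 was higher (1.97%) and 0 lower (1.02%).

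The members' changes with thrombin followed the GC content of their transcripts. Among the 28 members of lowest GC (40.5% to 49.3%) the median log2 fold change was 0.03 and 23 were positive. Among the 28 of highest GC (53.6% to 60.8%) it was −0.08 and 5 were positive. Across the 84 genes, Spearman's rho between GC and log2 fold change was −0.68, and across the 14588 tested genes with a GC value it was −0.446. These genes share the same libraries, so rho is a description without a test.

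Resting platelets left nearly all ribosomal protein genes uncalled: the edgeR test called 1 of 84 lower. Of all tested genes, 1.32% were called lower and 2.07% higher, and 0 members were called higher, with 1 at an unadjusted p under 0.05 and 0 by DESeq2 or limma-voom.

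A wider set of members was lower by a small amount with resting platelets. The median over 84 was −0.05 (all genes 0), 22 of 84 were positive, and 11 had no overlap with vehicle in the lower direction (13.1%, against 5.18% of all tested genes). With the replicate block 20 members were called lower (background 10.6%), among them Rpl41 (−0.19, adjusted p = 0.00649), Rps15 (−0.17, adjusted p = 0.0084), Fau (−0.20, adjusted p = 0.0113), Rplp0 (−0.11, adjusted p = 0.0128), Rplp1 (−0.17, adjusted p = 0.0207) and Rpl11 (−0.09, adjusted p = 0.0444). With GC correction added, 8 were lower (7.48%) and 0 higher (9.39%). Of the 6 genes just named, Rpl41 was then still called (adjusted p = 0.0117), and Rps15 (0.266), Fau (0.0698), Rplp0 (0.738), Rplp1 (0.121) and Rpl11 (0.161) were not. Spearman's rho with GC was −0.729 for members, and the highest GC group had a median of −0.11, with 1 of 28 positive, against 0.01 and 18 of 28 in the lowest. The single call of the fit without a block was lost in 6 of 8 fits that left out 1 library (vehicle 1, 2 or 4, resting 1, 2 or 4). It was also lost without number 1, 2 or 4, and there were 2 calls without vehicle 3. The shares of all genes called in these fits are not given here.

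**Figure D2:**
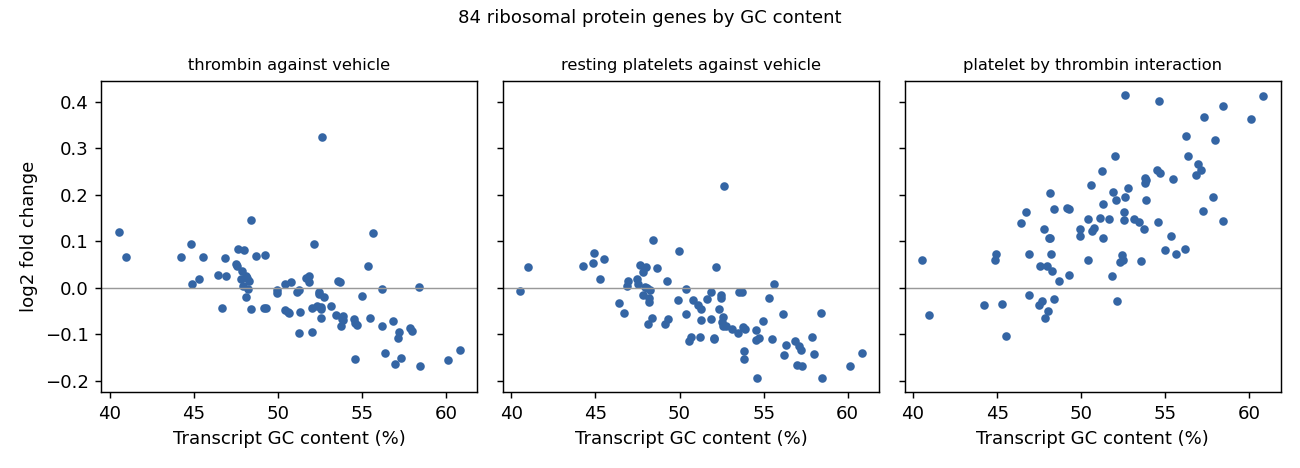
log2 fold change (edgeR) of the 84 genes against the GC content of their transcripts (percent) with thrombin, with resting platelets and for the interaction; each point is a gene. Points fall from left to right in the first panels (rho −0.68 and −0.729) and rise in the last (rho 0.678).

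Activated platelets against vehicle raised 11 members and lowered 0. The background was 12.2% higher and 13.6% lower, so 11 of 84 (13.1%) is close to the share of all genes called higher. At an unadjusted p under 0.05, 22 were higher and 0 lower, and DESeq2 and limma-voom called 0 lower. The shares of all genes for these counts are not given here. The median log2 fold change was 0.06 (all genes 0). In the higher direction 23 of 84 had no overlap between the groups (27.4%, against 12.6%). Under the replicate block 26 were called higher (20%) and 0 lower, and with GC correction added 30 were higher (21.3%).

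Paralogs of low abundance were among the 6 largest called rises. Rpl32l had 1.57, 0.773, 0.814 and 1.47 CPM with vehicle and 2.3, 2.64, 1.9 and 2.24 CPM with activated platelets. The groups did not overlap, and the rise was 1.94-fold (log2 0.96 ± 0.25, adjusted p = 0.0111), at a level where few reads fall on the gene. Rpl7l1, a paralog of the large subunit gene Rpl7, had 90.3, 87, 89.9 and 88.9 CPM with vehicle and 105, 99.8, 98.8 and 103 CPM with activated platelets. It rose by a log2 fold change of 0.19 ± 0.03 (adjusted p = 0.000343), the smallest p of the 11. Rps27l, a copy of Rps27 that is known as a target of p53, had 70.7, 61.9, 67.4 and 69.3 CPM with vehicle and 81.4, 72.2, 70.8 and 79.1 CPM with activated platelets. Every activated library was above every vehicle library, and the log2 difference was 0.17 ± 0.06 (adjusted p = 0.0339).

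Of the standard members, Rpl39, Rpl30 and Rpl38, small proteins of the large subunit, had the largest called rises. Rpl39 had 182, 153, 182 and 179 CPM with vehicle and 212, 204, 194 and 203 CPM with activated platelets (log2 0.22 ± 0.06, adjusted p = 0.00931). Vehicle library 2 was the low one, and the groups did not overlap. Rpl30 had 163, 143, 162 and 162 CPM against 189, 184, 174 and 180 CPM (0.21, adjusted p = 0.0195), and Rpl38 had 99.6, 90.4, 97.8 and 103 CPM against 116, 111, 110 and 112 CPM (0.20, adjusted p = 0.0137). The remaining calls were Rpl27a, Rpl17, Rps13, Rpl14 and Rpl24, between 0.10 and 0.14.

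The count of 11 varied with the libraries left out. It was 10, 4, 6 and 10 without vehicle 1 to 4, and 4, 8, 11 and 7 without activated 1 to 4. Leaving out replicate numbers 1 to 4 in turn gave 8, 1, 3 and 7. These fits hold fewer libraries. The shares of all genes called in them are not given here, so the counts have no background.

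Other paralogs were not called. Rpl22l1, a copy of Rpl22, had 43.2 to 54.3 CPM with vehicle and 48.7 to 56.8 CPM with activated platelets (log2 0.05 ± 0.08, adjusted p = 0.687). Rpl39l, a copy of Rpl39 known mainly from testis, had 4.59 to 6.07 CPM and 3.53 to 7.85 CPM (0.16 ± 0.22, adjusted p = 0.667). Both groups overlapped for both genes.

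**Figure D3:**
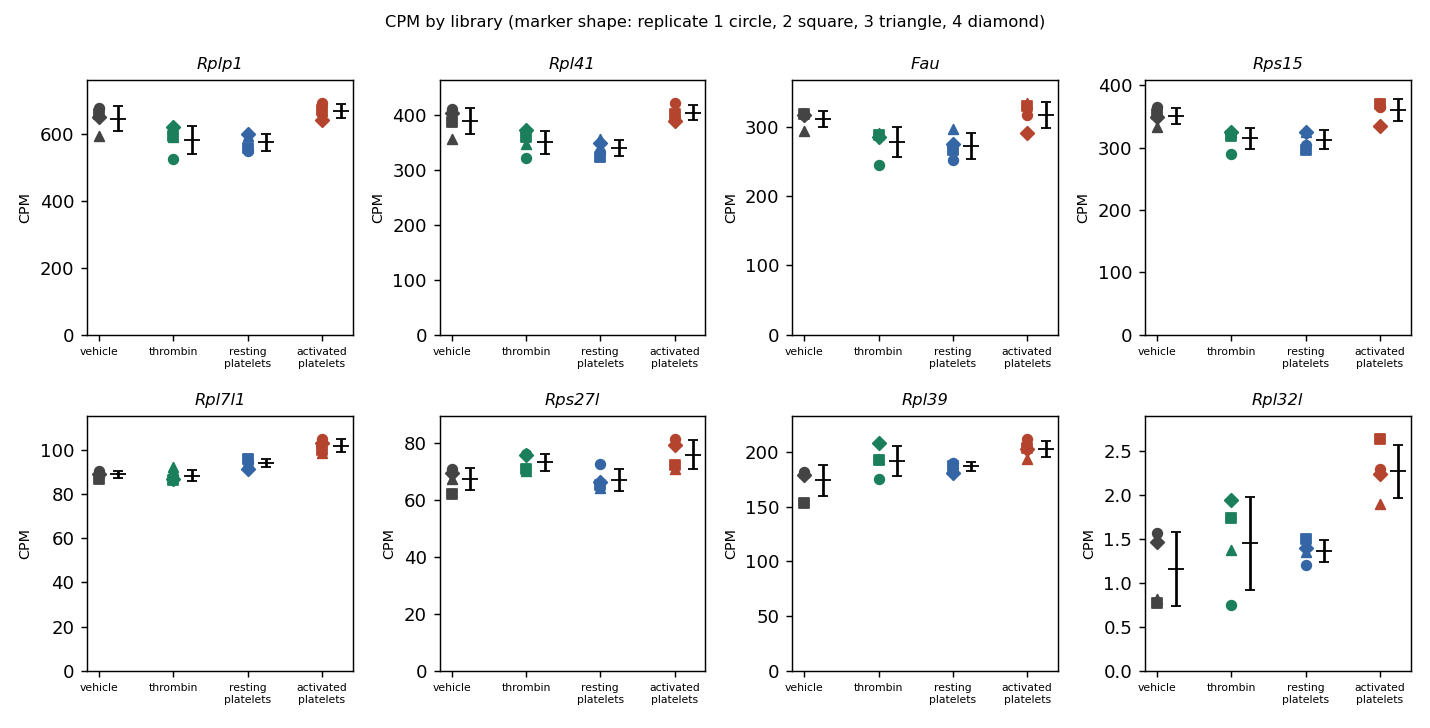
CPM (TMM-scaled, axes from 0) of 8 named members in each library, with marker shape for the replicate number and bars for mean ± SD of 4. Rplp1, Rpl41, Fau and Rps15 have lower means with thrombin and resting platelets than with vehicle or activated platelets. All 8 genes have their highest mean with activated platelets.

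Activated against resting platelets gave the most calls among these genes. Of 84 members 31 rose and 0 fell, against a background of 7.34% higher and 8.49% lower, so that 36.9% of members were called higher. The median log2 fold change was 0.12 (all genes 0), and 81 of 84 were positive, the exceptions being Rpl7 (−0.02), Rpl10 (−0.03) and Rps4x (−0.04). In 52 of 84 all activated libraries exceeded all resting libraries (61.9%, against 9.71% of all tested genes). At an unadjusted p under 0.05, 53 were higher and 0 lower, and DESeq2 called 44 higher and 0 lower, limma-voom 33 and 0. No share of all genes is given here for these counts, so they have no background. The replicate block called 56 higher (15.9%).

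The 6 largest called rises were all modest. Rpl36, of the large subunit, had 96.9, 102, 107 and 108 CPM with resting and 128, 136, 125 and 113 CPM with activated platelets (log2 0.28 ± 0.08, adjusted p = 0.0266). Rpl41, a very short basic peptide of the ribosome, had 333, 323, 356 and 349 CPM against 422, 401, 404 and 389 CPM (0.25 ± 0.05, adjusted p = 0.00589). Rps19, which is mutated in a share of people with Diamond-Blackfan anaemia, had 269, 259, 291 and 285 CPM against 344, 323, 329 and 312 CPM (0.24 ± 0.06, adjusted p = 0.0157). For these 3 genes the groups did not overlap.

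Rps29 had 320, 349, 372 and 354 CPM with resting and 429, 430, 395 and 392 CPM with activated platelets (log2 0.24 ± 0.07, adjusted p = 0.0375). Rpl29 had 118, 123, 128 and 126 CPM against 148, 149, 146 and 136 CPM (0.22 ± 0.06, adjusted p = 0.0148). Fau, which encodes a ubiquitin-like protein fused to the small subunit protein eS30, had 252, 267, 297 and 275 CPM against 317, 330, 335 and 292 CPM (0.22 ± 0.06, adjusted p = 0.0251). Activated library 4 of Fau lay below resting library 3, so that its groups overlapped, whereas those of Rps29 and Rpl29 did not.

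**Figure D4:**
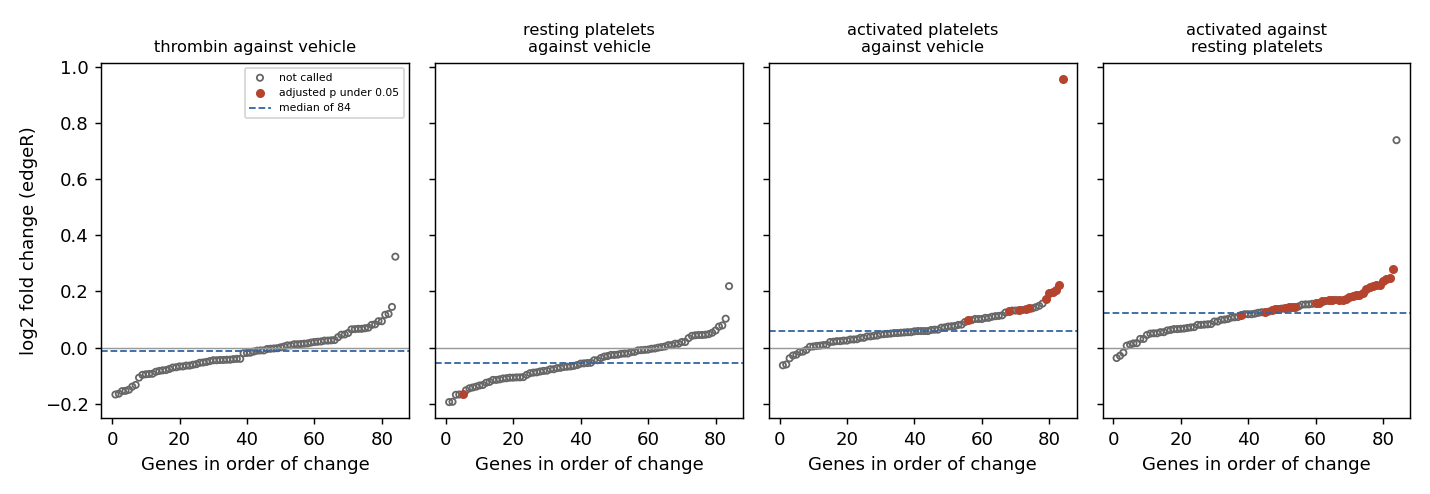
log2 fold changes (edgeR) of the 84 genes, sorted within each of 4 comparisons; filled points have an adjusted p under 0.05 and the dashed line is the median. Against resting platelets 31 genes are filled and the median is 0.12, and with thrombin none is filled and the median is −0.01.

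The size of the shift differed between replicate numbers. Number 1 alone carried male transcripts, so its number and its sex cannot be told apart. Over the 84 genes, the median log2 difference between the activated and the resting library of a number was 0.19 for number 1, 0.14 for number 2, 0.06 for number 3 and 0.08 for number 4, with 82, 78, 70 and 78 genes positive. The 31 calls were 8, 9, 23 and 27 without resting 1 to 4, and 12, 16, 20 and 29 without activated 1 to 4. Leaving out numbers 1 to 4 in turn gave 1, 4, 10 and 17 calls, with a median of 0.11 to 0.14. No share of all genes is given here for these fits, so their counts have no background.

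Exon length moved with the same contrast in genes outside the family. Members had a median exon length of 846 bases (390 to 5140), and all tested genes 3410. Among the 1500 other genes of at most 1000 bases, 158 rose and 18 fell with a median of 0.10, and among the 54 members of that length 22 rose with a median of 0.14. Other genes over 1000 bases had a median of −0.02 (14026 genes), and the 30 longer members had 0.09, with 9 called higher. Abundance did not go the same way: 2190 other genes of at least 100 CPM had a median of −0.04, with 178 higher and 417 lower.

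A correction for GC content and exon length, chosen after the data were seen and fitted with the replicate block, took out most of the common shift. The median of the members became 0.03, with 18 called higher (background 14.6%) and 7 lower (17.6%). Of the 6 genes above, Rps19 (0.13, adjusted p = 0.0093), Rpl29 (0.12, adjusted p = 0.00893), Fau (0.07, adjusted p = 0.0439) and Rpl41 (0.07, adjusted p = 0.0473) were still called higher, and Rpl36 (0.13, adjusted p = 0.175) and Rps29 (0.08, adjusted p = 0.131) were not. Rpl7l1 (0.11, adjusted p = 0.00392) and Rps27l (0.25, adjusted p = 1.01e-06) were also called. With GC correction and the block, but without the length term, 55 members were called higher (16%).

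**Figure D5:**
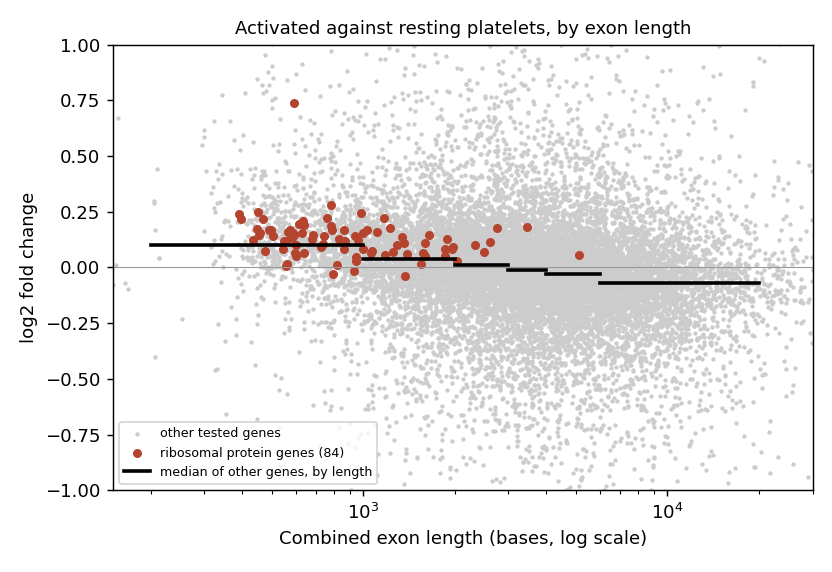
log2 fold change of activated against resting platelets for all tested genes against combined exon length (bases, log scale); red points are the 84 ribosomal protein genes, and black lines are medians of the other genes by length. The median of other genes is 0.10 up to 1000 bases and −0.07 above 6000, and 333 other genes lie beyond the axis limits of ±1.

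Against thrombin alone, activated platelets raised 12 members and lowered 0 (background 11.9% higher, 13.5% lower; before adjustment 0 were lower at p under 0.05, and DESeq2 and limma-voom called 0 lower). These 12 are 14.3% of the members, close to the share of all genes called higher. The median log2 fold change was 0.09 (all genes 0; 0.02 with the block and GC and exon length correction), and 17 of 84 did not overlap in the higher direction (20.2%, against 11.9%). Rpl7l1 had 88.1, 86.4, 92.1 and 86.9 CPM with thrombin, all below its activated libraries (log2 0.20 ± 0.03, adjusted p = 0.000209). Rps15, of the small subunit, had 290, 319, 326 and 325 CPM with thrombin and 366, 370, 372 and 335 CPM with activated platelets (0.20 ± 0.05, adjusted p = 0.00981). Rplp1 had 523, 593, 590 and 620 CPM against 692, 670, 668 and 640 CPM (0.20 ± 0.06, adjusted p = 0.0172). Rpl36 (0.27), Rpl41 (0.21) and Fau (0.20) completed the 6 largest. The groups did not overlap for these genes, except for Rpl36.

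The replicate block raised the count against thrombin to 38 (19.6%), and the block with GC correction to 33 (20.2%). In the fit without a block, it was 4, 12, 9 and 29 without thrombin 1 to 4, and 7, 5, 9 and 16 without activated 1 to 4. Leaving out numbers 1 to 4 in turn gave 1, 4, 3 and 14. The shares of all genes called in these leave-out fits are not given here. All 12 genes were among the 31 called against resting platelets, although both comparisons share the activated libraries.

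The interaction, the effect of activation with platelets minus the effect of thrombin without them, was higher for 16 members and lower for 0 (background 4.56% and 5.37%; before adjustment 0 were lower at p under 0.05, and DESeq2 and limma-voom called 0 lower). The median was 0.14 (all genes −0.01), and 0.04 with the block and GC and exon length correction. The 6 largest were Rpl36 (log2 0.41 ± 0.11, adjusted p = 0.0303), Rpl41 (0.40 ± 0.08, adjusted p = 0.00397), Fau (0.39 ± 0.09, adjusted p = 0.0121), Rplp1 (0.37 ± 0.08, adjusted p = 0.00931), Rps15 (0.36 ± 0.07, adjusted p = 0.00491) and Rps19 (0.33 ± 0.09, adjusted p = 0.0298). In each of these the point estimate was negative for thrombin against vehicle and positive for activated against resting platelets. Rpl41, for instance, had 411, 387, 356 and 404 CPM with vehicle and 321, 359, 348 and 372 CPM with thrombin (−0.15 ± 0.05, adjusted p = 0.267).

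The interaction also went with GC content and with the replicate number. Of the 28 members of highest GC, 15 were called, and of the 28 lowest 0. The median over members was 0.31, 0.12, 0.04 and 0.07 for numbers 1 to 4. Number 1 was the male one, so number and sex cannot be told apart here either. Leaving out 1 library gave 8 to 28 calls, with 8 without resting 1, 10 without resting 2 or thrombin 1 and 28 without thrombin 4. Leaving out numbers 1 to 4 in turn gave 0, 4, 10 and 14. The shares of all genes called in these leave-out fits are not given here. The block gave 44 higher (13.1%) and 1 lower, Rps4x (−0.10, adjusted p = 0.0451; background 15.9%), and the block with GC correction gave 32 higher (9.16%). A GC correction without the block gave 3, and the share of all genes called under that fit is not given here.

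Groups within the family were small. Of the P-stalk proteins, Rplp1 rose against resting platelets (log2 0.22 ± 0.06, adjusted p = 0.0164), while Rplp0 (0.11 ± 0.04, adjusted p = 0.109) and Rplp2 (0.15 ± 0.06, adjusted p = 0.0719) were not called without the block and were with it (adjusted p = 0.00574 and 0.0169). With the block and GC and exon length correction none of the 3 was called: Rplp1 had 0.03 (adjusted p = 0.44), Rplp0 0.01 (0.686) and Rplp2 −0.01 (0.813). Rplp0, which is used as a reference gene in PCR, had 921, 878, 954 and 936 CPM with resting and 1050, 961, 994 and 973 CPM with activated platelets. Its groups did not overlap.

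Of the members encoded as fusions with ubiquitin or a ubiquitin-like protein, Fau rose as given, whereas Rps27a had 487 to 506 CPM with resting and 476 to 523 CPM with activated platelets (log2 0.01 ± 0.04, adjusted p = 0.9). Rpl5 and Rpl11 form, with 5S RNA, a particle that can bind the p53 regulator MDM2. Rpl5 had 438 to 466 CPM with resting and 443 to 478 CPM with activated platelets (0.03 ± 0.04, adjusted p = 0.691). Rpl11 had 367 to 391 CPM and 400 to 419 CPM (0.11 ± 0.04, adjusted p = 0.0745; 0.00823 with the block), with no overlap.

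The 4 X-linked members were at like levels in male and female libraries. Rpl10 had 545 to 575 CPM in the libraries numbered 1 and 559 to 609 CPM in the others, and Rps4x 666 to 709 and 660 to 738 CPM. Rpl39 had 175 to 212 and 153 to 208 CPM, and Rpl36a 108 to 139 and 111 to 133 CPM. The ranges overlapped for all 4 genes. Of them Rpl39 alone was called in a comparison without the block, against vehicle.

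Genes that act with the ribosome did not all move with its proteins. Their counts are read against the shares of all tested genes called higher and lower, which for activated platelets were 12.2% and 13.6% against vehicle, 7.34% and 8.49% against resting platelets and 11.9% and 13.5% against thrombin, and under the block 20% and 22.5%, 15.9% and 18.6%, and 19.6% and 22%. Of 37 ribosome biogenesis factors, 17 rose (45.9%) and 1 fell with activated platelets against vehicle (median 0.19), among them Ltv1, a factor of small subunit maturation (log2 0.36 ± 0.04, adjusted p = 8.44e-06), and Rrp12 (0.48 ± 0.08, adjusted p = 0.000239), and Noc2l fell (−0.11 ± 0.04, adjusted p = 0.0373). Against resting platelets 7 rose (18.9%), led by Bop1 (0.26 ± 0.06, adjusted p = 0.00795) and Noc4l (0.25 ± 0.05, adjusted p = 0.00548), both of pre-ribosome processing, and 18 rose (48.6%) against thrombin. Resting platelets raised Ltv1 (0.24 ± 0.04, adjusted p = 0.00588) and Nolc1 (0.23 ± 0.06, adjusted p = 0.0442), and thrombin lowered Ubtf, a factor of RNA polymerase I (−0.25 ± 0.04, adjusted p = 0.0202). Under the block 26 rose (70.3%) against vehicle, 17 (45.9%) against resting platelets, where 2 fell, and 10 (27%, background 10.9%) with resting platelets. The median for these factors was higher against vehicle than against resting platelets (0.11), whereas that of the ribosomal proteins was 0.06 and 0.12.

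Of 25 translation factors and other genes with TOP-type mRNAs, 2 rose against vehicle with activated platelets, 8% against 12.2% of all genes: Tpt1 (log2 0.19 ± 0.05, adjusted p = 0.0142) and Eif3l, a subunit of an initiation factor (0.11 ± 0.03, adjusted p = 0.0136). Against resting platelets 1 rose (4%, against 7.34%), with a median of 0.03 over the list. Under the block 6 rose against vehicle (24%, against 20%), and 7 rose (28%, against 15.9%) and 2 fell (8%, against 18.6%) against resting platelets.

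Of 26 genes around mTORC1 and TOP control, 5 rose (19.2%, against 12.2% of all genes) and 11 fell (42.3%, against 13.6%) with activated platelets against vehicle. Sesn1, a sestrin, which restrains mTORC1, fell by 1.5 on the log2 scale (SE 0.10, adjusted p = 1.8e-08), and Rragd, a Rag GTPase that links amino acids to mTORC1, fell by 0.83 (SE 0.08, adjusted p = 2.13e-06). Castor1, an arginine sensor that restrains it, rose (0.56 ± 0.10, adjusted p = 0.000386), as did Larp4, which binds poly(A) tails (0.19 ± 0.04, adjusted p = 0.00267). Against resting platelets 1 rose (3.85%, against 7.34%) and 6 fell (23.1%, against 8.49%), with a median of 0. With the replicate block 4 rose (15.4%, near the 15.9% of all genes) and 10 fell (38.5%, against 18.6%). With resting platelets Sesn1 also fell (−0.39 ± 0.09, adjusted p = 0.0323).

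Of 15 tested ribosome quality control genes, 5 rose (33.3%, against 12.2% of all genes) and 1 fell (6.67%, against 13.6%) against vehicle, among them Abce1, which splits ribosomes for recycling (log2 0.29 ± 0.07, adjusted p = 0.00642), while the ubiquitin ligase Rnf14 fell (−0.16 ± 0.03, adjusted p = 0.00192). Against resting platelets 3 rose (20%, against 7.34%) and 2 fell (13.3%, against 8.49%), including Zfp598, a sensor of collided ribosomes (0.20 ± 0.05, adjusted p = 0.0142), and Ltn1, which marks stalled nascent chains (−0.13 ± 0.04, adjusted p = 0.038). Of 83 mitochondrial ribosomal protein genes, 12 rose (14.5%, against 12.2% of all genes) and 3 fell (3.61%, against 13.6%) with activated platelets against vehicle, with a median of 0.06. Mrps26 (−0.24 ± 0.07, adjusted p = 0.0245) and Mrpl4 (−0.19 ± 0.06, adjusted p = 0.0213) were among those that fell. Against thrombin 9 rose (10.8%, against 11.9%) and Mrpl44 fell (−0.25 ± 0.06, adjusted p = 0.00356). Against resting platelets 12 rose (14.5%, against 7.34%) and 0 fell (before adjustment 0 at p under 0.05), with a median of 0.07. Mrpl33 (0.32 ± 0.05, adjusted p = 0.000486) and Mrpl38 (0.31 ± 0.06, adjusted p = 0.00191) had the smallest p-values there. In that comparison the block gave 20 higher (24.1%, against 15.9%) and 0 lower.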

How the data were processed

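The deposited table holds estimated counts per gene, made by the authors with no normalization. The builds GRCm39 and mm10 and the tools featureCounts 1.6.4 (Subread), STAR 2.7.2b and cutadapt 2.5 are listed per the submitters' processing notes. How strand and shared reads were set was not given in the sources used here. Of the values above 0, 25.5% were not whole, and in 47 of the 86 members no value was whole. Values that were not whole were rounded, which changed 0.00734% of all counts. The authors' combined exon length per gene (other than a measurement of a library) was deposited in the same table.

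Libraries were placed in groups by title. All 16 were fitted as 4 groups with edgeR 4.0.16 (R 4.3.3): filterByExpr by group (15610 genes), TMM, robust quasi-likelihood test, two-sided, Benjamini-Hochberg adjustment over all tested genes, threshold 0.05. The design had assumed whole counts. CPM use TMM-scaled library sizes. TPM use combined exon length. SE are of the log2 fold change. GC content came from GENCODE transcripts by symbol (93.5% of tested genes). The fit was tested on simulated data.

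Same-numbered libraries deviated together from their group means (r 0.29 to 0.617 in 24 pairs, and −0.436 to 0.253 between numbers in different groups), and 16 of 16 correlated best with their own number. Numbers were therefore used as pairs in the replicate block and in same-numbered comparisons. The main fit had no block, so its calls, SE and adjusted p-values leave this pairing out. The pairing is read from the data and is not in the labels.

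Named genes were, per comparison, the 6 called members with the largest rise and fall, paralogs, P-stalk, fusion, 5S particle and X-linked members, the 5 highest and 5 lowest per length, and up to 2 rising and 2 falling genes with the smallest p in each other list. Some genes that this rule names are not reported here. Members and lists were chosen with earlier results of these data known. Alternatives were limma 3.58.1 (voom), DESeq2 1.42.0, other scalings and filters, the block, GC and length corrections, and leaving out libraries.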

Additional observations from a re-analysis of the deposited data

Results flagged for a closer look

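The interaction between platelets and thrombin, a test of whether the effect of thrombin differs with and without platelets, passed an adjusted p of 0.05 for 16 members. On the log2 scale it was 0.41 for Rpl36, 0.40 for Rpl41, 0.39 for Fau, 0.37 for Rplp1, 0.36 for Rps15, 0.33 for Rps19, 0.32 for Rpl29 and 0.28 for Rpl18. It was 0.25 for each of Rps10, Rpl13 and Rpl28, 0.24 for Rpl8, 0.23 for Rps21, and 0.22 for Rps26. Calls numbered 0 without replicate number 1 and 28 without thrombin library 4, with no share of all genes given here for those fits.

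A library stood far from the other 3 of its group in 5 of 112 groups of named members checked, and chance flags about 1 in 20 groups. The gap to the nearest library, divided by the range of the group, was 0.963 for Rpl30 and 0.892 for Rpl39, both with vehicle library 2 low. It was 0.922 for Fau with vehicle library 3 low, 0.84 for Fau with thrombin library 1 low, and 0.861 for Rpl6l with thrombin library 2 low.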

How the results depend on the processing

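Medians of the members kept their sign in every comparison but thrombin, where they lay near 0. Counts of calls depended on the fit. With the replicate block, members called higher were 1 with thrombin (4 lower), 26 against vehicle with activated platelets, 56 against resting platelets, 38 against thrombin and 44 for the interaction (1 lower), and resting platelets gave 20 lower. The block with GC correction gave 1 with thrombin, 30, 55, 33 and 32, and 8 lower with resting platelets. The block with GC and exon length correction, added after seeing the data, gave 18 higher and 7 lower against resting (background 14.6% and 17.6%). It gave 2 higher and 1 lower with thrombin, 1 and 7 with resting platelets, and 12 and 8 against vehicle with activated platelets. Against thrombin it gave 11 and 8, and for the interaction 13 and 9. Outside the comparison with resting platelets, the shares of all genes under this fit are not given here, so these counts have no background. Medians under this correction were −0.02 for resting platelets, 0.02 against vehicle, 0.03 against resting, 0.02 against thrombin and 0.04 for the interaction. The correction reversed Rpl10 against vehicle (−0.06), Rpl12 against resting (−0.09), against thrombin (−0.12) and in the interaction (−0.13), and Rpl38 in the interaction (−0.15). None of these was called in the main edgeR fit (in the same order, adjusted p = 0.938, 0.507, 0.935, 0.588 and 0.621). GC correction without the block gave 0 lower with resting platelets and 3 for the interaction, with no share of all genes given here. The cause of these changes was not tested.

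DESeq2 called 1 lower with thrombin, 6 lower with resting platelets, 26 higher against thrombin and 30 for the interaction. Without a filter on low counts, when more genes are tested, resting platelets gave 0 lower, and activated platelets 6 higher against vehicle and 18 against resting. A fit on only the groups compared gave 0 lower with resting platelets, and library size scaling gave 7 higher against vehicle. The shares of all genes called by DESeq2 and under these settings are not given here, so the counts have no background. Adding pseudogenes made the share of counts 3.13%, 3.07%, 2.99% and 3.25% (vehicle, thrombin, resting, activated), and leaving the 100 most abundant other genes out of the total made it 3.72%, 3.64%, 3.55% and 3.85%.

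Leaving out 1 library gave 0 to 2 lower with resting platelets, and 4 to 11 higher against vehicle, 8 to 29 against resting, 4 to 29 against thrombin and 8 to 28 for the interaction. Leaving out a number gave 0 to 1, 1 to 8, 1 to 17, 1 to 14 and 0 to 14. Shares of all genes called are not given here for these fits, so the counts have no background. Medians then ran from −0.05 to 0 with thrombin, −0.07 to −0.03 with resting platelets, 0.05 to 0.08 against vehicle, 0.11 to 0.14 against resting, 0.05 to 0.12 against thrombin and 0.09 to 0.17 for the interaction.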
